A study of Mus musculus with 12 samples.

Results

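The gelsolin family and the cofilins are proteins that cut, cap and take apart actin filaments, and 7 of their genes were followed here through early T cell development in the mouse thymus. All probe sets whose only gene symbol in the platform annotation was Scin, Gsn, Capg, Flii, Svil, Cfl1 or Dstn were taken, which gave 17 of the 45101 probe sets of the array. They are 7 of 18193 genes that the annotation names alone on a probe set. The genes were proposed with their signals in these 3 stages known and so count as selected on those signals. Their differences between stages are therefore given as a description, with errors but without p-values, and counts of called members support nothing.

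Thymocytes without CD4 and CD8, called double negative (DN), were compared at 3 successive stages. DN2 cells were sorted as CD44+CD25+, DN3 cells as CD44-CD25+ and DN4 cells as CD44-CD25-, in each case after depletion of CD4+ and CD8+ cells and free of CD4, CD8, CD3, NK1.1 and gamma-delta T cell receptor staining. The mice of all 3 groups were C57BL/6 females, 5 to 6 weeks old, with no treatment, transgene or deletion named in the labels, and RNA was measured on Affymetrix Mouse Genome 430 2.0 arrays. Cells were pooled from 4 mice for every sort, and the 4 sorts (16 mice) each supplied 1 array per stage, so each group has 4 arrays and arrays of the same sort share their source of cells.

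Actin filaments grow by adding monomers at their ends and are turned over by proteins that sever or cap them. Gelsolin and its relatives sever filaments and cap their fast-growing ends in response to calcium, whereas cofilins bind the sides of older filaments and speed their loss. Cofilin is switched off by LIM kinases and switched on again by slingshot and chronophin phosphatases. In lymphocytes this turnover serves migration, contact with other cells and signalling from the T cell receptor.

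Across the 3 stages Scin, Gsn and Capg varied most by their brightest probe sets. Cfl1, Dstn and the larger gelsolin relatives Flii and Svil stayed within narrow ranges. Scin was 4.64-fold lower in DN3 than in DN2 and 60.5-fold lower in DN4 than in DN2. Gsn was lowest in DN3 and 5.06-fold higher in DN4 than in DN3 on its brightest probe set. Capg was 2.89-fold lower in DN4 than in DN2 on its brighter probe set and 1.22-fold lower on the other. Folds are of quantile-normalized signal with an offset of 5.57 added, and are understated where signals are dim. In sorted populations, fewer cells of a kind and less RNA per cell cannot be told apart.

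The sequences before the starts of Scin, Capg and Gsn, the genes whose levels varied most, are shown as 250 bases each from the RefSeq promoter table of build GRCm38.p6, which held 6 of the 7 genes. Scin is on the minus strand of chromosome 12 (window chr12:40134229-40134478), Capg on the plus strand of chromosome 6 (chr6:72549397-72549646, before a start inside the gene, whose annotated span begins upstream at 72538282) and Gsn on the plus strand of chromosome 2 (chr2:35256109-35256358, the most upstream of its 3 listed starts). Capitals mark matches to 6 short motifs searched on both strands, named for the factors known to bind such letters. These were the E-box CAGCTG, the motif AGATAA of GATA factors, TGTGGT for RUNX proteins, CTTTGA for the TCF/LEF family, GAGGAA for ETS proteins such as PU.1, and TGGGAA for RBPJ.
Scin: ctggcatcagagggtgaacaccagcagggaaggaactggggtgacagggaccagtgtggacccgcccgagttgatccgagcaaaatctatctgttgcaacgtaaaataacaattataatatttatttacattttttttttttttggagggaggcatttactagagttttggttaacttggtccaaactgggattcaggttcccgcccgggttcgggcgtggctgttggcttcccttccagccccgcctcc
Capg: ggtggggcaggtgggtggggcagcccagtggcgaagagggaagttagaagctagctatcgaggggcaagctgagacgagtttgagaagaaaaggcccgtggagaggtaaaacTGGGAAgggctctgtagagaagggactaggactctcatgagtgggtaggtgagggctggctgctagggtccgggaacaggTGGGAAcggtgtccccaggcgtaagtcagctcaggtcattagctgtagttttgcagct
Gsn: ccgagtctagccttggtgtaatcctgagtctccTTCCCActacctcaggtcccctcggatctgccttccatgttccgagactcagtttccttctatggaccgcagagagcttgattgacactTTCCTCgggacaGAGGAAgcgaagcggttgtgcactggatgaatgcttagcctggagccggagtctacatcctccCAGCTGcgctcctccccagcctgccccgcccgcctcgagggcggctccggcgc
The Scin window held none of the 6 motifs. The Capg window held TGGGAA at 138 and 58 bases before the start, and 21.6% of all 32851 windows of this length held that motif. The Gsn window held the reverse complement of TGGGAA at 217 bases, the reverse complement of GAGGAA at 128 bases, GAGGAA itself at 116 bases and CAGCTG at 53 bases before the start. GAGGAA was present in 23.3% of windows and CAGCTG in 13.0%, so matches of these kinds are common. The other Gsn starts, not shown, had matches too. Start 2 had CAGCTG at 216 bases and the reverse complement of TGTGGT at 130. Start 3 had the reverse complement of TGTGGT at 160 bases and TGGGAA at 89. TGTGGT was present in 14.0% of windows. Which start these cells use was not tested. No match overlapped another in the windows shown.

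Scin encodes adseverin (scinderin), a calcium-dependent severing protein known from secretory and blood cells. Its gene spans positions 40059769 to 40134228 of chromosome 12 (this and all gene positions are from RefSeq, GRCm38.p6). It had 1 probe set (1450276_a_at). Its normalized signal was 2867, 3829.7, 3246 and 3257 in the DN2 arrays of sorts 1 to 4. In DN3 it was 473, 935, 805 and 687. In DN4 it was 26.7, 65.7, 45.6 and 68.8. No array of a later stage reached the lowest array of the stage before it, and all 12 values lay above the filter level (signal 20.1), that of the median of the whole table.

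On the log2 scale Scin stood at 11.68 ± 0.17 in DN2 (SD, n = 4), then at 9.47 ± 0.42 in DN3 and at 5.77 ± 0.56 in DN4. The log2 difference was -2.21 ± 0.27 (SE from limma) between DN3 and DN2 and -3.70 ± 0.27 between DN4 and DN3, a 13.0-fold difference at the later step. Within sorts the earlier difference ran from -2.58 in sort 1 to -2.005 in sort 3, and the later from -3.98 in sort 3 to -3.22 in sort 4. Of 24324 probe sets that passed the filter, Scin had the 10th lowest difference between DN4 and DN3 and the 8th lowest between DN4 and DN2. Sort 1 was the lowest of the 4 sorts at every stage, by a mean deviation from the stage means of -0.50.

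**Figure D1:**
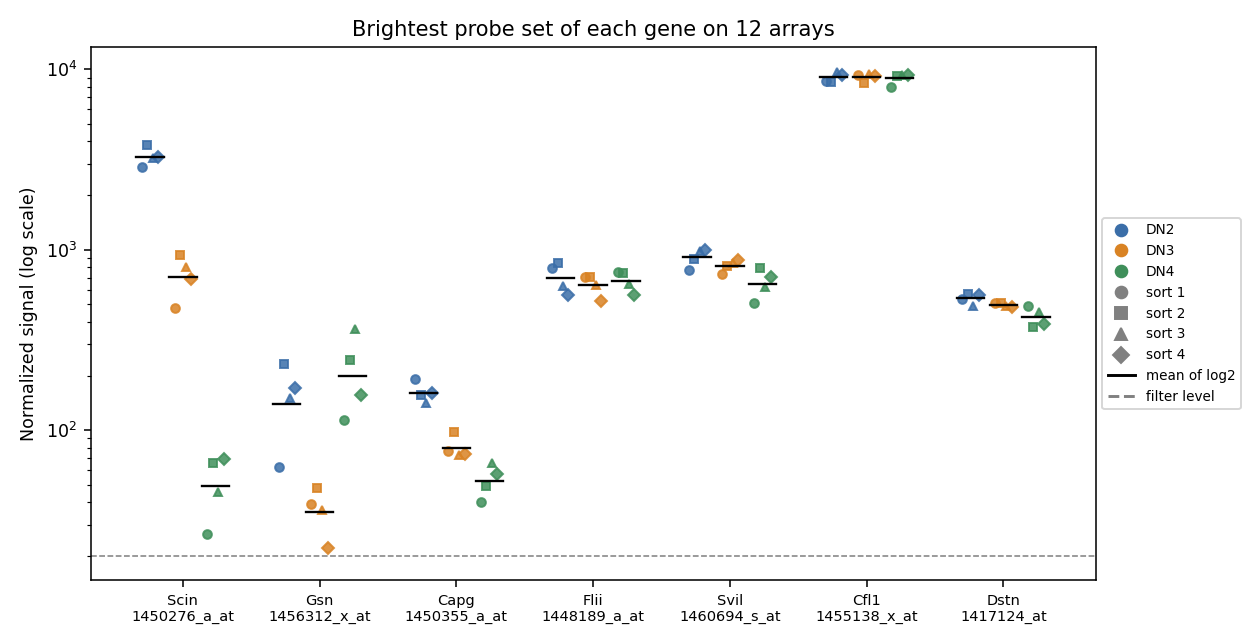
Normalized signal (log axis) of the brightest probe set of each of the 7 genes on 12 arrays, with colours for stages, symbols for sorts, black bars for the mean on the log2 scale and a dashed line at the filter level. Scin descends from 2867 or more in DN2 to 68.8 or less in DN4, Gsn is lowest in DN3, and Cfl1 lies between 8008 and 9719 throughout.

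Gsn encodes gelsolin itself, which has a cytoplasmic and a secreted form. Its gene spans positions 35256359 to 35307902 of chromosome 2. It had 6 probe sets, of which 5 passed the filter and 1456568_at, with signals from 0.393 to 11.6, lay below the filter level on all arrays. Signals of the brightest (1456312_x_at) in sorts 1 to 4 were 62.8, 233, 150.0 and 171 in DN2. They were 39.0, 47.8, 35.9 and 22.2 in DN3. They were 114, 244, 363 and 157 in DN4. Every DN3 array lay below every DN2 and DN4 array, whereas the DN2 and DN4 arrays overlapped.

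The log2 difference of this probe set was -1.84 ± 0.41 between DN3 and DN2, 2.34 ± 0.41 between DN4 and DN3, and 0.50 ± 0.41 between DN4 and DN2. The difference at the later step was the 7th largest of the 24324 probe sets. The earlier difference was -0.62 in sort 1 against -2.67 in sort 4, and the DN2 array of sort 1 was the lowest of its stage at 62.8. The DN4 level exceeded that of DN2 in 3 of 4 sorts.

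The other 4 Gsn probe sets that passed the filter had lower signals and the lowest stage mean in DN3 too. Their log2 differences between DN4 and DN3 were 1.72 ± 0.34 (1436991_x_at), 1.73 ± 0.31 (1437171_x_at), 1.40 ± 0.31 (1415812_at) and 0.86 ± 0.25 (1456569_x_at). Those between DN3 and DN2 were -1.33 ± 0.34, -1.16 ± 0.31, -0.97 ± 0.31 and -0.49 ± 0.25 in the same order. Both differences kept their sign in 4 of 4 sorts for each of the 5 probe sets, and their size was smallest for the dimmest. Probe sets ending in _x_at, which 4 of these 6 do, contain probes that can match other transcripts. The remaining tested probe set, 1415812_at, is not of that kind and gave 27.6, 59.1, 32.0 and 41.5 in DN2, 7.37, 24.6, 31.2 and 12.4 in DN3 and 52.1, 47.7, 66.4 and 51.6 in DN4. Its DN3 and DN4 arrays did not overlap, while those of DN3 and DN2 did, through sort 3.

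**Figure D2:**
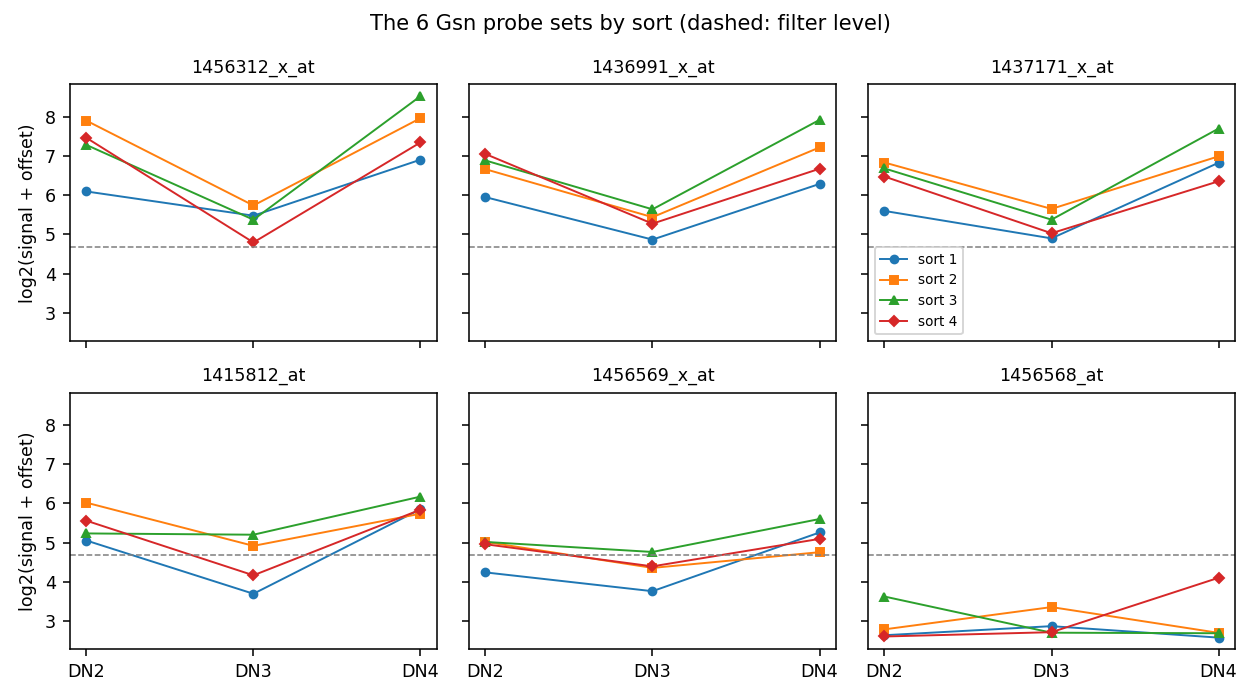
Log2(signal + offset) of the 6 Gsn probe sets at DN2, DN3 and DN4, with 1 line per sort and a dashed line at the filter level (log2 4.68). In the 5 probe sets that passed the filter all 4 lines are lower at DN3 than at DN4, and 1456568_at stays below the filter level.

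Capg encodes a gelsolin-type protein that caps filament ends without severing them and is abundant in macrophages. Its gene spans positions 72538282 to 72562983 of chromosome 6. The brighter of its 2 probe sets (1450355_a_at) gave 192, 157, 142 and 160.1 in the DN2 arrays. It gave 76.7, 98.2, 72.6 and 74.2 in DN3. It gave 40.2, 48.8, 65.6 and 57.2 in DN4. The stages did not overlap, although the highest DN4 array (65.6) came close to the lowest of DN3 (72.6), both of sort 3.

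The log2 differences of Capg were -0.97 ± 0.16 between DN3 and DN2, -0.56 ± 0.16 between DN4 and DN3 and -1.53 ± 0.16 between DN4 and DN2. The sign was the same in 4 of 4 sorts in each comparison, and the later difference ran from -0.93 in sort 2 to -0.13 in sort 3. The other probe set (1447803_x_at) was dimmer, with signals of 24.6 to 42.6 over the 12 arrays, and differed by -0.09 ± 0.17 between DN3 and DN2, higher in 2 of 4 sorts, by -0.20 ± 0.17 between DN4 and DN3 and by -0.29 ± 0.17 between DN4 and DN2. The probe sets of Capg thus disagreed.

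Flii and Svil are larger relatives with further domains. Flii (flightless, positions 60714143 to 60727263 of chromosome 11) joins gelsolin repeats to leucine-rich repeats, and Svil (supervillin, positions 4920467 to 5119293 of chromosome 18) links actin and myosin to the membrane. The brightest Flii probe set (1448189_a_at) gave 795, 846, 630.0 and 558 in DN2, 706, 705, 641 and 523 in DN3 and 755, 748, 648 and 565 in DN4. Its stage means differed by at most -0.12 ± 0.17 on the log2 scale. The stages overlapped, and the arrays of sorts 1 and 2 lay above those of sorts 3 and 4 within every stage.

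The other bright Flii probe set (1416044_at) had the same order of sorts averaged over the stages, with mean deviations of 0.25 and 0.35 in sorts 1 and 2 against -0.25 and -0.34 in sorts 3 and 4. A further Flii probe set (1439356_at), at 1.25 to 19.5, did not pass the filter. The brighter Svil probe set (1460694_s_at) gave 772, 889.8, 989.9 and 998 in DN2, 732, 814, 846 and 874 in DN3 and 506, 789, 619 and 704 in DN4. Its log2 difference was -0.15 ± 0.15 at the earlier step and -0.33 ± 0.15 at the later, lower in 4 of 4 sorts at both steps with overlapping groups. The dimmer Svil probe set (1460735_at) differed by -0.02 ± 0.17 and -0.17 ± 0.17 at these steps.

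Cfl1 and Dstn encode cofilin-1 and destrin, the main filament-disassembling proteins of most cells. Cfl1 lies at positions 5490455 to 5494031 of chromosome 19 and Dstn at positions 143915331 to 143943324 of chromosome 2. The brightest Cfl1 probe set (1455138_x_at) stood at the 99.8th percentile of all probe sets by mean level. Its signal was 8616, 8538, 9719 and 9353 in DN2, 9292, 8423, 9380.0 and 9159 in DN3 and 8008, 9131, 9259 and 9292 in DN4. The stage means differed by 0.0019 ± 0.11 at the earlier step and by -0.024 ± 0.11 at the later.

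The dimmer Cfl1 probe set (1448346_at), which is not of the _x_at kind, gave 442, 645, 359 and 351 in DN2, 429.9, 328, 552 and 517 in DN3 and 659, 612, 588 and 479 in DN4. The log2 difference was 0.04 ± 0.22 at the earlier step and 0.37 ± 0.22 at the later, with stages that overlapped. The probe set of Dstn (1417124_at) gave 537, 568, 486 and 564 in DN2, 507, 506, 487 and 481 in DN3 and 487, 372, 452 and 390.1 in DN4. It differed by -0.12 ± 0.12 and -0.22 ± 0.12 at the successive steps and by -0.34 ± 0.12 between DN4 and DN2, lower in 4 of 4 sorts. The highest DN4 array, of sort 1 at 487, lay just above the lowest DN2 array, of sort 3 at 486, so these stages overlapped.

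**Figure D3:**
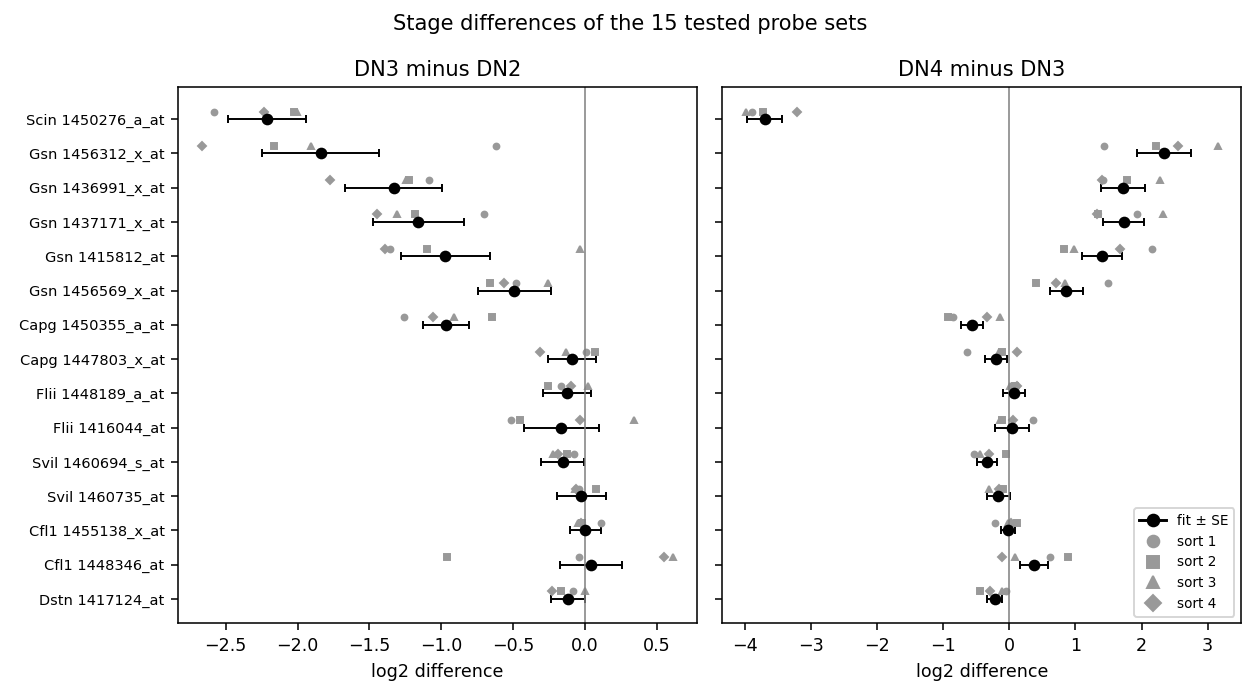
Log2 differences of the 15 probe sets that passed the filter, DN3 minus DN2 and DN4 minus DN3, with the fitted value and its standard error in black and the 4 sorts in grey. Scin is negative in both panels, the Gsn values change sign between them, and the fitted values of Flii, Svil, Cfl1 and Dstn lie between -0.33 and 0.37.

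Of the 17 member probe sets, 15 passed the filter on dim signals. In the limma fit with Benjamini-Hochberg adjustment over 24324 probe sets (threshold 0.05), 5 of the 15 were called between DN3 and DN2, all lower (1 of Scin, 3 of Gsn and 1 of Capg; with the sort as a block also the Gsn probe set 1415812_at), where 7.04% of all probe sets were called, 3.93% lower and 3.11% higher. Between DN4 and DN3, 5 were called higher, all of Gsn, and 2 lower (Scin and Capg), beside 11.1% of all probe sets, 4.34% higher and 6.75% lower. Between DN4 and DN2, 4 were called, all lower, 1 each of Scin, Capg, Svil and Dstn, beside 26.9%, of which 12.9% lower and 13.9% higher. The split of directions depended on the scaling. At the later step 1055 probe sets were higher and 1642 lower, against 320 and 2506 with arrays centred on their median and 54 and 5129 without normalization, where 4 members were higher and 5 lower. Between DN4 and DN2, 3385 were higher and 3146 lower, against 2412 and 3566 with centring and 419 and 4874 without normalization. At the earlier step 757 were higher and 955 lower, against 902 and 732 with centring. Groups of 4 arrays did not overlap for 4 of the 15 at the earlier step, 6 at the later and 2 between DN4 and DN2, beside 14.5%, 20.1% and 27.4% of all probe sets. Nothing is read from these counts, since stage levels were in view when the genes were proposed, and several probe sets belong to 1 gene.

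The calls differed in how far they held over the 22 or 23 other ways of processing. As the genes were proposed with these signals known, this describes dependence on processing only and gives the calls no support. Scin was called in 22 of 23 at each step and in 23 of 23 between DN4 and DN2, and the exception was the fit on sorts 1 and 2 alone. The brightest Gsn probe set was called in 20 of 23 at the earlier step and 21 of 23 at the later; the earlier call ended without DN3 replicate 4, and both ended in either pair of sorts alone. The Gsn probe sets 1436991_x_at and 1437171_x_at were called in 11 and 7 of 22 at the earlier step, and 1456569_x_at in 4 of 22 at the later. Capg was called in 20 of 23 at the earlier step but 10 of 23 at the later. Between DN4 and DN2 Svil was called in 13 of 23 and Dstn in 9 of 23.

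Deviations of the sorts from the stage means differed between the genes. Sort 1 was low for Scin (-0.50), for the 5 Gsn probe sets (-0.62 to -0.35) and for the Svil probe sets (-0.25 and -0.31). Capg's brighter probe set deviated by -0.05 to 0.05 only. Over all tested probe sets, deviations of arrays of the same sort correlated at 0.24 to 0.39 across stages.

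**Figure D4:**
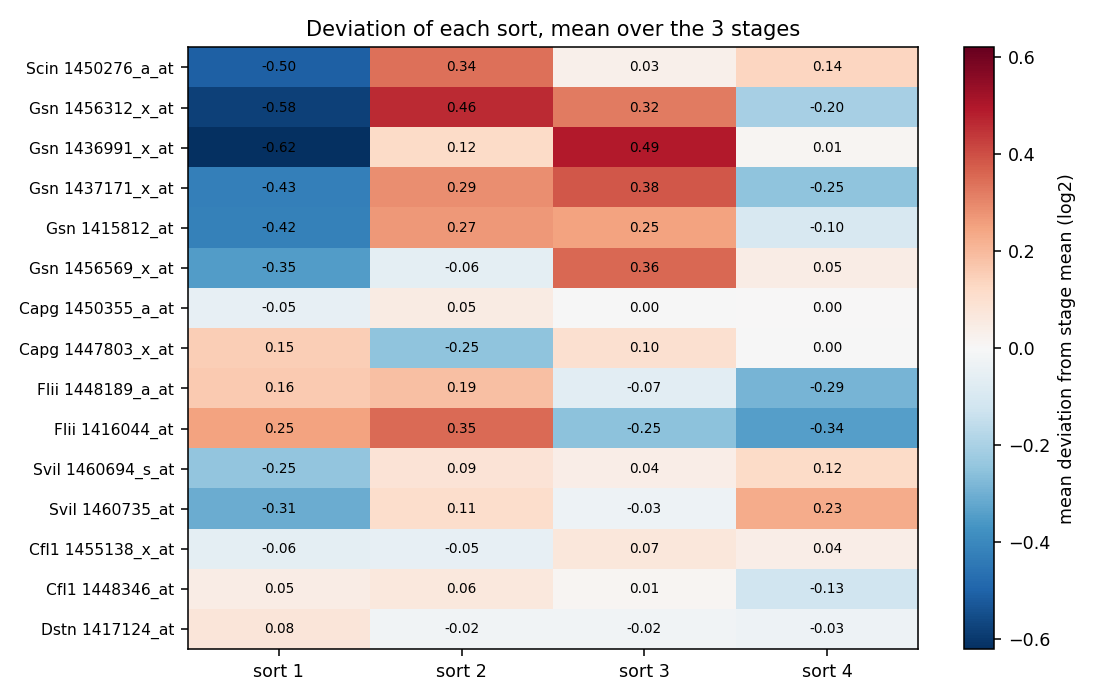
Mean deviation of each sort from the stage means (log2, averaged over the 3 stages) for the 15 probe sets that passed the filter. Sort 1 is low for Scin, Gsn and Svil, and Flii is above 0 in sorts 1 and 2 and below 0 in sorts 3 and 4.

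The genes most like Scin in pattern were sought by the root mean square distance between 12 log2 values, each gene centred on its own mean, among 10734 other genes. The nearest were Ctla2a at a distance of 0.52, Serpinb1a at 0.54 and Erg at 0.58. Mean signals of Ctla2a were 3778, 1052 and 51.6 in DN2, DN3 and DN4. Those of Serpinb1a were 1237, 124 and 7.22, and those of Erg 541, 170.2 and 2.06, with DN4 below the filter level for both. For Capg the nearest were Spns3 (0.18), Syk (0.18) and Ppp3ca (0.20). For Gsn they were Tnfrsf13c (0.73), Arhgef40 (0.73) and Tox2 (0.76), so no other gene came as near to Gsn as others did to Scin or Capg. The distance also includes the spread between arrays of a stage. In DN2, DN3 and DN4 the log2 SD was 0.77, 0.40 and 0.71 for Gsn. It was 0.17, 0.42 and 0.56 for Scin and 0.18, 0.19 and 0.27 for Capg.

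Markers of other cells were set beside these genes, as sums of signals over a list. Of 5 fibroblast markers 0 passed the filter, with sums of 27.0 to 46.8 in DN2, 26.6 to 54.8 in DN3 and 31.0 to 72.9 in DN4, beside the Gsn levels. Single markers of several other lists had their lowest mean in DN3, as Gsn did. Mean signals in DN2, DN3 and DN4 were 21.2, 7.78 and 27.5 for the B cell gene Ms4a1, 82.6, 52.1 and 123 for Cd74 of antigen-presenting cells, and 16.0, 9.76 and 33.9 for the epithelial keratin gene Krt8. All 3 rose between DN3 and DN4 in 4 of 4 sorts (limma adjusted p = 0.036, 0.0232 and 0.0471, the last 0.0548 with the sort as a block). Without the block each was the 1 called gene of its list at that step, of 3 tested B cell, 2 dendritic and 4 thymic epithelial markers. The other tested B cell and dendritic markers had lower means in DN4 than in DN3. Over the 3 stages these were 186, 160 and 122 for Cd79b, 17.8, 19.4 and 12.4 for Pax5, and 67.4, 12.4 and 5.93 for Itgax. Cd79b fell in 4 of 4 sorts at the later step, and the blocked limma fit called it lower (adjusted p = 0.0162). Of the other tested thymic epithelial markers, Ccl25 was lowest in DN2 (37.7, 57.8 and 56.7). Krt5 hardly differed (26.0, 26.1 and 25.4), and Foxn1 was lowest in DN3 (18.6, 13.3 and 16.2). The sums of the B cell, dendritic and thymic epithelial lists were 174 to 224, 70.2 to 101 and 86.5 to 148 in DN3. In DN4 they were 143 to 195, 83.5 to 191 and 124 to 149. The megakaryocyte marker Itga2b (153.6, 42.3 and 57.7) and the endothelial marker Pecam1 (94.6, 45.5 and 58.3) were lowest in DN3 too. Both were called lower in DN3 than in DN2 (limma adjusted p = 0.00144 and 0.0116). Between DN3 and DN4 neither was called (limma adjusted p = 0.322 and 0.331). Gp1bb, the other megakaryocyte marker that passed the filter, was highest in DN3 (26.0, 34.1 and 25.5). Pf4, which did not pass, stood at 16.2, 17.8 and 21.3. Of the double-positive markers, Cd8b1 rose 13.6-fold between DN3 and DN4 (adjusted p = 2.97e-05), while Cd4 lay below the filter level on all arrays.

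Of 7 myeloid markers 6 passed, with sums of 448 to 713, 175 to 246 and 116 to 171 in the 3 stages, lowest in DN4 as for Scin and Capg. Mpo (mean signals 219, 13.2 and 10.4) and Lyz2 (189, 67.2 and 30.04) made up most of the sum in DN2. Csf1r went the other way, at 35.0, 44.1 and 48.5, and Cd68 stood at 29.1, 32.4 and 21.9. Itgam lay below the filter level on all arrays. The sum of 4 natural killer markers, 2 of which passed, was 1565 to 1807 in DN2, 417 to 730 in DN3 and 89.4 to 110.1 in DN4, in the same order as Scin. Nkg7 carried it, with means of 1642, 549.7 and 70.1, while Klrk1 and Ncr1 lay below the filter level on all arrays. Prf1, the other marker that passed, went the other way at the earlier step, with means of 20.6, 34.9 and 19.5. It was higher in DN3 than in DN2 in 4 of 4 sorts. The blocked limma fit called that rise (adjusted p = 0.0317), and the unblocked fit did not (adjusted p = 0.0541). Of 5 mast cell markers on the array Cpa3 alone passed, with mean signals of 3226, 143 and 36.9, while Ms4a2, Fcer1a and Mcpt4 lay below the filter level on all arrays. For megakaryocytes and platelets, 2 of 5 passed, with sums of 162 to 241, 85.9 to 129 and 77.3 to 131, and Ppbp and Gp9 lay below the filter level on all arrays. Of 4 erythroid markers on the array Klf1 alone passed, with means of 19.6, 20.9 and 23.2. The sums of this list were 33.9 to 46.1, 47.3 to 69.9 and 65.8 to 136 in the 3 stages. Alas2, which did not pass the filter, had means of 4.34, 8.75 and 47.1 and rose in 4 of 4 sorts at the later step. The part of other cells in the levels of Scin, Gsn and Capg was not tested.

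The sorted stages showed their defining transcripts. Mean signals of Kit were 818, 219.9 and 100.7 in DN2, DN3 and DN4, those of Ptcra 108, 612 and 302, and those of Il2ra, which encodes CD25, 2358, 1414 and 119.9. Median deposited signals ranged from 16.7 to 28.1 in DN2, 19.8 to 25.8 in DN3 and 15.2 to 18.1 in DN4. The log2 ratio of the 3' to the 5' Gapdh control, a sign of RNA shortening, ranged from 1.10 to 1.82 in DN2, 0.88 to 1.26 in DN3 and 1.02 to 1.46 in DN4, and its part in the differences was not tested.

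Other genes of actin turnover were taken from 6 lists drawn up from the pathway, 93 genes in all, of which 83 had a probe set with that symbol alone and 77 passed the filter. Each gene was represented by its brightest probe set. Between DN3 and DN2, 9 of the 77 fell and 1 rose (12 and 4 with the sort as a block), where 8.96% of all genes were called (17.0% with the block). Between DN4 and DN3, 2 fell and 5 rose (7 and 7 with the block), beside 13.1% of all genes (26.1% with the block). Between DN4 and DN2, 18 fell and 6 rose, beside 31.0%. With the block 26 fell and 8 rose there, where 9466 of all 24324 tested probe sets were called. At an unadjusted limma p under 0.05, 22, 20 and 36 of the 77 passed in these 3 comparisons. Of all 24324 tested probe sets, 5025, 6514 and 9424 did. In a fit on the brightest probe set of each gene alone, 24, 20 and 37 of the 77 passed. Of all 11238 genes in that fit, 2792, 3518 and 4998 did. The medians of the 77 were -0.13, -0.05 and -0.17, against 0.02, 0.05 and 0.06 over all genes.

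Cofilin's regulators included Ssh1, which had the smallest adjusted p of the 77 genes between DN4 and DN2, though not at either single step. Ssh1, a slingshot phosphatase that activates cofilin, fell by 1.03 ± 0.17 between DN2 and DN3 (limma adjusted p = 0.0033), by 0.69 ± 0.17 between DN3 and DN4 (adjusted p = 0.0241) and by 1.72 ± 0.17 in all (adjusted p = 2.34e-05). The middle call ended without DN3 replicate 2, DN3 replicate 3, DN4 replicate 1 or DN4 replicate 4. Ssh2 fell by 0.86 ± 0.22 between DN2 and DN4 (adjusted p = 0.014). With the sort as a block Ssh2 was also called at the earlier and later steps, at -0.30 and -0.56 (limma adjusted p = 0.0426 and 0.00279). Pdxp, which encodes chronophin, rose by 0.64 ± 0.14 between DN2 and DN3 (adjusted p = 0.0173, not called without DN3 replicate 3) and by 0.92 ± 0.14 from DN2 to DN4 (adjusted p = 5.83e-04). All moved the same way in 4 of 4 sorts. The kinase genes Limk1 and Limk2 differed by -0.41 ± 0.26 and 0.24 ± 0.13 between DN4 and DN2 (adjusted p = 0.28 and 0.199). In this list of 11 tested regulators, 1 fell and 1 rose at the earlier step, 1 fell and 0 rose at the later (4 and 0 at an unadjusted p under 0.05), and 3 fell and 1 rose between DN2 and DN4. With the block, 2 fell and 1 rose at the earlier step, and 2 fell and 0 rose at the later.

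Thymosins, which hold actin monomers in reserve, fell between DN2 and DN3. Tmsb4x fell by 0.88 ± 0.14 and Tmsb10 by 1.11 ± 0.14 (limma adjusted p = 0.002 and 5.49e-04), and from DN2 to DN4 they fell by 1.25 ± 0.14 and 1.30 ± 0.14 (adjusted p = 4.4e-05 and 4.96e-05). The 4 other tested Tmsb10 probe sets ranged from -1.46 to 1.11 at the earlier step. Pfn1, the profilin that feeds monomers to growing ends, rose by 0.72 ± 0.21 between DN2 and DN4 (adjusted p = 0.0237, not called without DN2 replicate 4, DN4 replicate 1 or DN4 replicate 2). Of 12 tested monomer and end binders, 3 fell and 0 rose at the earlier step (5 and 2 at an unadjusted p under 0.05), and 4 fell and 1 rose between DN2 and DN4.

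Among 23 tested actins, crosslinkers and side binders, 4 fell and 0 rose between DN2 and DN3 (6 and 1 at an unadjusted p under 0.05). Coro7, a coronin, fell by 1.26 ± 0.18 and the tropomyosin gene Tpm4 by 1.02 ± 0.16 (limma adjusted p = 0.00143 and 0.00271). Between DN3 and DN4, Tpm1 rose by 0.85 ± 0.15 (adjusted p = 0.00514), or 0.29 without normalization between arrays. The actin genes Actb and Actg1 differed by 0.03 ± 0.10 and -0.04 ± 0.11 between DN4 and DN2 (adjusted p = 0.868 and 0.797).

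Of 18 tested nucleation promoters and formins, limma called 0 at the earlier step (3 at an unadjusted p under 0.05, and 1 higher and 1 lower with the sort as a block), 2 rose and 1 fell between DN3 and DN4, and 5 fell and 2 rose between DN2 and DN4. Diaph2, a formin, fell by 1.04 ± 0.15 between DN3 and DN4 and by 1.33 ± 0.15 in all (adjusted p = 0.00116 and 5.16e-05). Nckap1, of the WAVE complex, rose by 1.33 ± 0.23 between DN2 and DN4 (adjusted p = 0.00125). Of 6 tested genes of the Arp2/3 complex, which starts branches on filaments, only Arpc5l was called at the earlier step, with a fall of 0.49 ± 0.12 (adjusted p = 0.0265), and 0 at the later or between DN4 and DN2 (0 and 3 at an unadjusted p under 0.05). With the sort as a block, Arpc2 and Arpc5l were called lower and Arpc1a higher between DN4 and DN2, by -0.37, -0.29 and 0.28 (limma adjusted p = 0.012, 0.0213 and 0.028), each in 4 of 4 sorts. The other 2 tested probe sets of Arpc5l differed by -0.11 and -0.10 at the earlier step. The Arpc5l call there ended without DN2 replicate 3, DN2 replicate 4, DN3 replicate 1 or DN3 replicate 2.

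Of 7 tested relatives of gelsolin and cofilin outside the members, 0 were called at either step by limma (1 and 0 at an unadjusted p under 0.05), and Cotl1, the coactosin-like gene, fell by 0.64 ± 0.16 between DN2 and DN4 (adjusted p = 0.00984). Cfl2, the muscle-type cofilin, differed by -0.06 ± 0.28 between DN4 and DN2 (adjusted p = 0.894). The gelsolin relatives Vil1 and Avil did not pass the filter. Directions at the later step depended on scale. Without normalization between arrays the median of all tested probe sets was -0.44 between DN4 and DN3, against 0.03, and 17 of the listed genes were called lower and 0 higher. With arrays centred on their median 5 were lower and 1 higher. Of the changes given above, without normalization Tmsb4x, Tpm4 and Arpc5l lost their calls at the earlier step, Tpm1 at the later, Pdxp at the earlier step and between DN2 and DN4, and Pfn1 between DN2 and DN4, each with its direction kept. Arpc5l lost its call with median centring too.

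**Figure D5:**
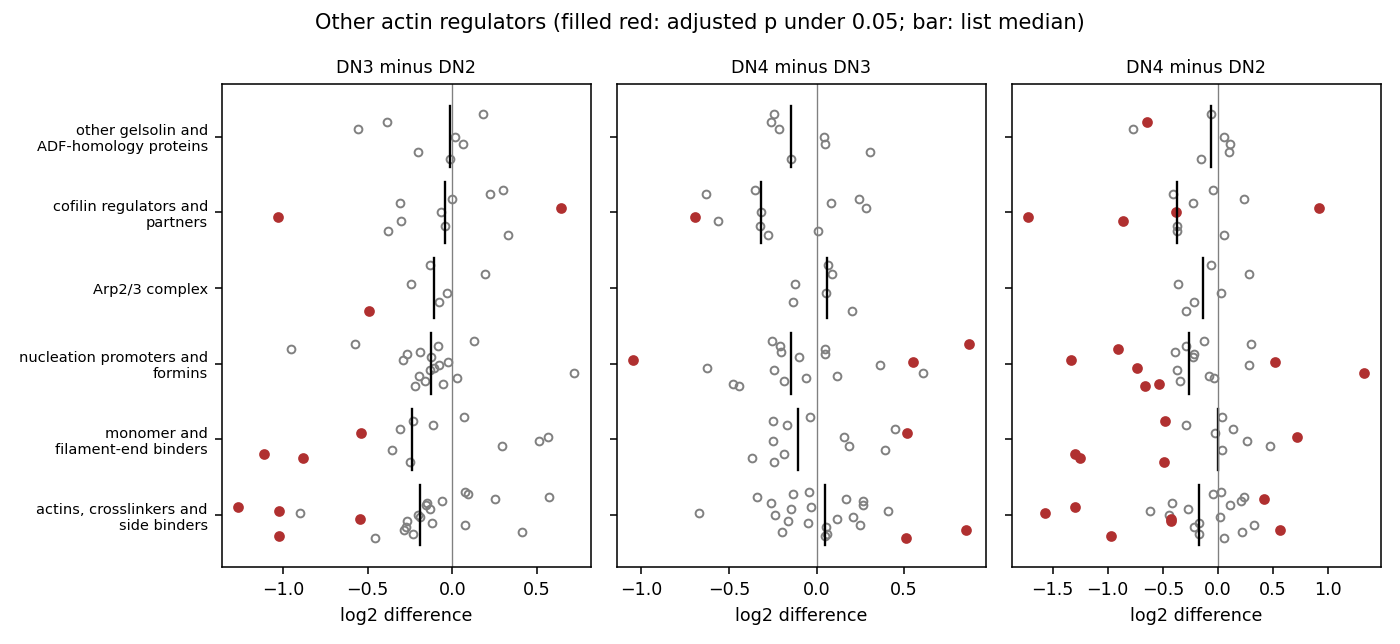
Log2 differences of the 77 tested genes of the 6 actin lists in 3 comparisons, with filled red points for genes called at an adjusted p under 0.05, open points for the others and black bars for list medians. Between DN4 and DN2 the 24 called genes lie between -1.72 and 1.33, with 18 of them below 0.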

How the data were processed

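Values are linear probe set signals (intensity) that the authors deposited, made with GCOS (the submitters' processing notes). The GCOS version is not given in the sources used here, nor are algorithm and scaling. RNA was amplified in repeated rounds of cDNA synthesis, per the labels' protocols. Members, lists and tests were chosen with earlier results of these data known. After 64 control probe sets were removed, signals were quantile normalized and the table's 25th percentile (5.57) was added before log2. Probe sets above the table median (signal 20.1, log2 4.68) on at least 4 arrays (24324) were tested with limma 3.58.1 in R 4.3.3 on group means of 12 arrays, two-sided, with Benjamini-Hochberg adjustment and a threshold of 0.05. The fit was run on simulated data with independent noise and no shared effect of the sort, so that run could not test the pairing. Symbols came from the platform annotation (34958 probe sets with 1 symbol, 932 with several, 9211 with none) and were updated through Entrez identifiers for 34754. Members kept the annotation's own symbols. Listed genes were named by smallest adjusted p, up to 3 per list, comparison and direction, and others only with values of genes of stated interest. Likeness was sought for members whose stage means spanned at least 1 log2 unit, passing over placeholder symbols. Figures used matplotlib 3.10.9 (Python 3.11.15).

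Per the labels, arrays of the same sort share cells; their deviations correlated at 0.24 to 0.39 across stages, against at most 0.14 between sorts. Standard errors, p-values and calls are from the fit without the sort unless another setting is named, so they leave this pairing out. Alternatives were a block for the sort and other choices of scaling, offset, filter, probe sets, arrays and sorts. Precision is limited by there being 4 arrays a stage.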

Additional observations from a re-analysis of the deposited data

Results flagged for a closer look

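Among 51 groups of 4 arrays (17 probe sets at 3 stages), 3 held an array whose gap to the nearest other exceeded Dixon's 95% critical value, where chance flags about 1 in 20 groups. The Gsn probe set 1456569_x_at had 13.3 in the DN2 array of sort 1, against 25.5 to 26.8 in the other sorts. The Gsn probe set 1456568_at, below the filter level on all arrays, had 11.6 in the DN4 array of sort 4, against 0.393 to 0.914. The brightest Cfl1 probe set had 8008 in the DN4 array of sort 1, against 9131 to 9292.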

How the results depend on the processing

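Over 1143 member values recomputed under the alternatives, 0 called differences changed sign, 1106 values moved by less than the spread between replicates and 37 moved by more. Counts of calls moved by over 1.5 times as follows, for all probe sets, member probe sets or listed actin genes. With the sort as a block (the pairing), 3529 probe sets and 16 listed genes were called between DN3 and DN2, and 5552 and 14 between DN4 and DN3; the block ended no member's call and added 1. Without normalization between arrays, 770 probe sets, 2 members and 3 listed genes were called between DN3 and DN2, and 5183 probe sets and 17 listed genes between DN4 and DN3. In that setting Diaph3, Evl and Vcl, which had risen between DN3 and DN4 by 0.55, 0.51 and 0.51, stood at -0.021, -0.062 and -0.048. That setting left the arrays' unequal medians in place. With no filter, 1008, 3 and 6 were called between DN3 and DN2, 1376 probe sets and 2 listed genes between DN4 and DN3, and 2 members and 13 listed genes between DN4 and DN2, over more probe sets tested. With a filter at the 75th percentile, or the brightest probe set of each gene, which both test fewer member probe sets, 3 members were called at each step, and with the latter 3856 probe sets between DN4 and DN2. With only the 8 arrays compared, 2 members were called between DN4 and DN2.

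In sorts 1 and 2 alone, with fewer arrays, 183 probe sets, 0 members (limma; 4 at an unadjusted p under 0.05) and 1 listed gene were called between DN3 and DN2, 43, 0 and 0 between DN4 and DN3 (8 members and 9 listed genes unadjusted), and 2223, 2 and 7 between DN4 and DN2. In sorts 3 and 4 alone the counts were 323, 1 and 0 (limma; 21 listed genes unadjusted), 146, 1 and 0 (11 listed genes unadjusted), and 2910, 2 and 10. Over all probe sets, 4025 of 24946 at the earlier step and 4629 at the later had an unadjusted limma p under 0.05 in sorts 1 and 2. For sorts 3 and 4 these were 4135 and 5128 of 24793. Leaving out each array in turn gave 1186 to 1708 probe sets, 2 to 5 members and 8 to 11 listed genes between DN3 and DN2. It gave 1488 to 2971, 5 to 7 and 2 to 8 between DN4 and DN3, and 5142 to 6478, 2 to 3 and 15 to 23 between DN4 and DN2. The fewest members between DN3 and DN2 came without DN3 replicate 4, and 3 were left without DN2 replicate 2, 3 or 4 or DN3 replicate 1 or 2. Between DN4 and DN2, 2 were left without DN2 replicate 4 or DN4 replicate 3. Listed genes between DN4 and DN3 came to 2, 3, 4 and 4 without DN3 replicates 2, 3 and 4 and DN4 replicate 4, and those between DN4 and DN2 to 15 without DN4 replicate 2. Applying the alternatives to each called listed gene was chosen after seeing the data.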
